A study of Mus musculus with 8 samples.

Results

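The genes described here encode the nuclear subunits of respiratory complexes I, II and III and of ATP synthase. They were chosen by name among the genes that a RefSeq accession on the array identified: symbols starting Ndufa, Ndufb, Ndufc, Ndufs or Ndufv (assembly factors of the Ndufaf series left out), Sdha to Sdhd, Cyc1, symbols starting Uqcr, and symbols starting Atp5 (Atp5s and Atp5sl left out). No measured value entered the choice. Of 71 protein-coding genes that meet the rule, 68 had a probe, out of 22909 genes with a probe in all; Ndufb1, Ndufb4b and Ndufb4c had none. The 68 members were 7 core subunits of complex I and 31 genes named as its accessory subunits, 4 subunits of complex II, 9 of complex III, and 17 of ATP synthase (5 of the F1 head, 4 of the peripheral stalk, 3 genes for subunit c and 5 other membrane subunits). The accessory group follows the gene names: it includes Ndufa4, first assigned to complex I and later to complex IV, and Ndufa4l2, its hypoxia-inducible relative.

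The arrays held RNA of mouse heart ventricle from wild-type (WT) mice and from knock-in (KI) mice, homozygous for the ΔK210 allele of Tnnt2, which encodes troponin T of the cardiac thin filament and here lacks 1 lysine. The knock-in is a model of dilated cardiomyopathy, a disease in which the ventricle widens and contracts weakly. Each genotype was sampled at birth (0 day) and at 1 week, with 2 single-colour arrays in each of the 4 groups, and the tissue of 3 animals was combined for a group. The labels name the tissue as ventricle, whereas the series' own description names the left ventricle, and no strain is stated. Whether the paired arrays of a group hold separate pools is not stated, so errors and p-values measure array-to-array spread only, which may be technical.

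The samples of 3 of the 4 arrays at 1 week differ between the scanner files and the value table of the deposit, although the values match. These arrays are called A to D. In the value-table record, which is the main one here, A and D are WT and B and C are KI. In the scanner-file record A and B are WT and C and D are KI. The birth arrays have the same sample in both records. Comparisons between genotypes at 1 week are therefore given in both records, and the comparison of 1 week with birth is also given with the genotypes together, where the records cannot matter.

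Complex I passes electrons from NADH to ubiquinone and complex II passes them from succinate to ubiquinone. Complex III moves them on to cytochrome c, and complexes I and III pump protons that ATP synthase uses to make ATP. Core subunits of complex I carry the flavin and the iron-sulphur clusters, and accessory subunits surround them and are needed for assembly and stability. The heart depends heavily on this chain, and around birth cardiac muscle turns from glycolysis towards the oxidation of fatty acids as its mitochondria mature.

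The 8 arrays shared 1 slide, with birth in row 1 and 1 week in row 2, and at birth WT filled columns 1 and 2 and KI columns 3 and 4. Age cannot be told apart from row, nor genotype at birth from column. The 75th percentile of signal was 439.9 to 466 at birth; arrays A to D had 510.6, 523, 467.7 and 342.4. No spot was saturated. Levels are log2 signal minus that percentile of the same array, so that a level of 0 is the array's 75th percentile; levels of different probes are not compared with each other.

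All 68 members were well above background on all 8 arrays, and their transcripts varied little. The range of a member over the 8 arrays had a median of 0.421 on the log2 scale, against 0.725 for the 15744 genes tested. For 51 of the 68 members (75%) the highest array was less than 1.5-fold above the lowest, against 37.1% of genes tested. The genes tested included many with a dimmer signal, and the part of signal level in this contrast was not tested. The same limit holds for the shares of intervals given below. A narrow range was not particular to the members: of complex IV, Cox7a2 ran from 7.31 to 7.46, though Cox8b ran from 6.93 to 7.87. Uqcrh, the hinge protein of complex III, had the narrowest range: its levels were 8.64, 8.49, 8.59 and 8.51 at birth (WT 1, WT 2, KI 1, KI 2) and 8.59, 8.57, 8.61 and 8.51 on arrays A to D. Its level was thus nearly the same at either age and in either genotype.

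Sdhd and Ndufb6 each had a range over 2-fold, owed to 1 array. Sdhd, a membrane anchor of complex II, was at 6.80, 6.63, 6.53 and 6.55 at birth and at 6.44, 6.64, 6.42 and 5.62 on arrays A to D, with array D alone at the low end. Ndufb6, an accessory subunit, was at 5.60, 5.45 and 5.56 on the first 3 birth arrays and at 4.38 on KI birth 2, then at 5.66, 5.53, 5.56 and 5.22 on arrays A to D. In neither case did the other array of the same group share the low level.

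The members also moved together between arrays of the same age. On WT birth 1, 56 of the 68 members were higher than on the other 3 birth arrays, and on array A 45 were the highest of the 4 arrays at 1 week. Array D was the lowest of the 4 at 1 week for 46 members and for 39% of genes tested. The median deviation of the members from their own means was 0.050, -0.095, -0.059 and -0.111 on the birth arrays and 0.157, 0.058, 0.089 and -0.043 on arrays A to D. Over all genes tested it stayed between -0.040 and 0.041. The share of all genes that were highest on WT birth 1 or array A was not counted. The pattern was not particular to the members. On array D the median was -0.376 for assembly factors, -0.393 for coenzyme Q and cytochrome c genes and -0.240 for the citric acid cycle. On array A these lists stood at 0.163, 0.201 and 0.186, whereas regulators of mitochondrial gene expression stood at -0.040.

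**Figure D1:**
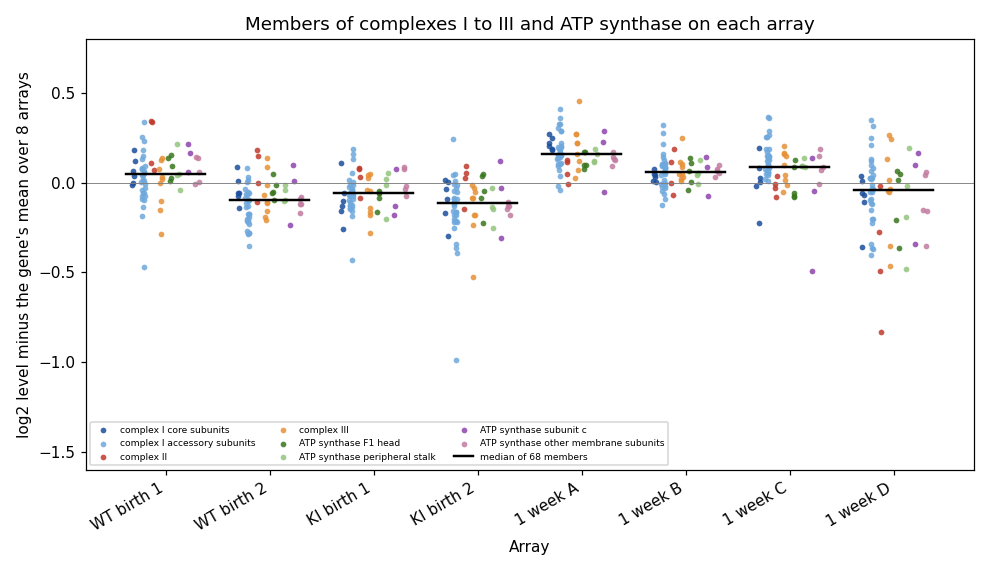
Each point is a member on 1 array, as its log2 level minus its own mean over the 8 arrays; colours give the role and black lines the median of the 68 members. The median was highest on array A (0.157) and lowest on KI birth 2 (-0.111), and the low outlying points are Sdhd on array D and Ndufb6 on KI birth 2.

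No member passed the threshold between KI and WT at either age. At birth 0 of 68 members were called by limma (adjusted p under 0.05) and 0 had an unadjusted p under 0.05; 0.0381% of genes tested were called in either direction. KI was below WT by the group means for 54 of the 68 members. The median difference was -0.066, against 0.001 over all genes tested. Without WT birth 1 that median was 0.002. The scaling moved it too: quantile normalization gave a median of -0.005 with 35 members lower in KI, and median scaling gave -0.126 with 63 lower, where all genes lay at -0.058. The 2 KI arrays lay below the 2 WT arrays without overlap for 16 members and above them for 0, while 15.2% of genes tested lay below and 16.7% above.

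The 95% interval of the KI to WT difference at birth lay within 1.5-fold in either direction for 58 of the 68 members (85.3%), against 57.5% of genes tested. These intervals rest on array-to-array spread only, so they do not bound a difference between animals. The interval was wide for Ndufb6, whose difference was -0.56 ± 0.36 (SE, interval -1.41 to 0.29) because of the low signal on KI birth 2. The other members with the smallest p in the lower direction were Ndufab1, the mitochondrial acyl carrier protein, at -0.28 ± 0.23, Sdhb, the iron-sulphur subunit of complex II, at -0.17 ± 0.12, and Atp5a1, subunit alpha of the F1 head, at -0.16 ± 0.13. In the higher direction they were Ndufa4l2 at 0.24 ± 0.23, Ndufb2 at 0.11 ± 0.16, Ndufv3 at 0.10 ± 0.16 and Ndufa12 at 0.07 ± 0.13. Each of these 8 had an adjusted p of 1 by limma, at 2 arrays against 2. Values after ± are limma standard errors unless marked SD.

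Sdhb was 1 of the 16 members with KI below WT. Its levels were 7.68 and 7.57 in WT and 7.48 and 7.42 in KI, without overlap, but the lower WT array lay closer to the higher KI array than to the other WT array. The 7 core subunits of complex I each had a lower mean in KI, with differences from -0.175 to -0.040 and a median of -0.138. Of the 4 subunits of complex II, Sdha, Sdhb and Sdhd were below WT without overlap at birth, while Sdhc was at 5.21 and 5.03 in WT and at 5.17 and 5.19 in KI.

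At 1 week the genotype difference depended on the record, and 0 of 68 members were called by limma in either; 0 had an unadjusted p under 0.05 in the value-table record and 6 in the scanner-file record. In the value-table record 0.0508% of genes tested were called; the median difference of the members was 0.027, beside 0.026 over all genes tested, and 38 of 68 differences were positive. In the scanner-file record 0.00635% were called at 1 week and 0% at birth; the median was -0.095, beside 0.003 over all genes tested, and 15 of 68 were positive. KI lay below WT without overlap for 10 members in the first record and 19 in the second, and above for 3 in each, against 18% and 19.7% of genes tested below and 19.8% and 20.2% above. The first of these medians was 0.125 without array A, -0.083 without array D and -0.012 without array C, so no direction of a shift at 1 week was stable.

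For Atp5g3 and Sdhd, with the widest differences at 1 week in the value-table record, 1 array stood apart. Atp5g3, for subunit c, was at 8.28, 8.13, 7.55 and 8.21 on arrays A to D, and its difference was -0.40 ± 0.20 in the value-table record (limma adjusted p = 0.689) and -0.32 ± 0.22 in the scanner-file record (adjusted p = 0.66). Array C is KI in both records and was alone in being low. Sdhd was higher in KI by 0.50 ± 0.26 in the value-table record and lower by the same order, at -0.52 ± 0.25, in the scanner-file record. Its interval in the first was -0.11 to 1.11 and in the second -1.12 to 0.08, and array D, the low one, is WT in the first record and KI in the second.

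Cyc1, Ndufa11, Ndufs1, Ndufa10 and Uqcrfs1 had an unadjusted p under 0.05 in the scanner-file record. Each was lower in KI there, and array D was its lowest at 1 week. They are named after their values were seen. Cyc1 stood at -0.59 ± 0.23 and Ndufa11 at -0.53 ± 0.17, against 0.12 ± 0.32 and 0.19 ± 0.25 in the value-table record. Ndufs1, Ndufa10 and Uqcrfs1 stood at -0.39 ± 0.13, -0.36 ± 0.13 and -0.37 ± 0.15. Their limma adjusted p lay between 0.446 and 0.491.

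The other 6 members that the smallest p selected at 1 week all changed sign between the records. Atp5pb (subunit b of the stalk), Atp5md (a small membrane subunit) and Ndufc2 stood at 0.26 ± 0.21, 0.24 ± 0.20 and 0.20 ± 0.15 in the value-table record and at -0.28 ± 0.20, -0.18 ± 0.21 and -0.15 ± 0.15 in the scanner-file record. Ndufa3, Uqcrc1 (a core protein of complex III) and Uqcrq (its small ubiquinone-binding subunit) stood at -0.16 ± 0.13, -0.14 ± 0.11 and -0.12 ± 0.12 in the first and at 0.14 ± 0.13, 0.06 ± 0.12 and 0.06 ± 0.12 in the second. Intervals lay within 1.5-fold for 55 members in the value-table record and 52 in the scanner-file record.

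**Figure D2:**
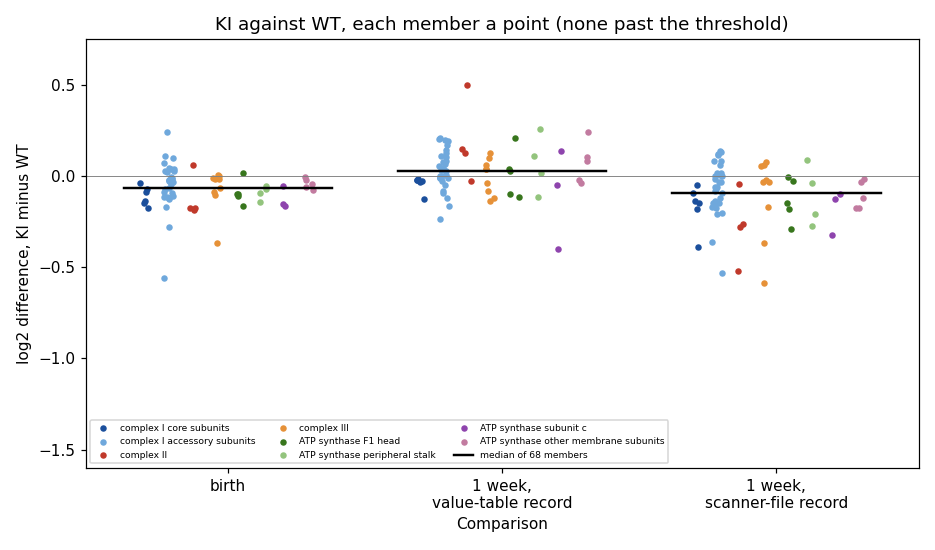
Each point is the log2 difference, KI minus WT, of 1 member, at birth and at 1 week under each record of which array is which sample; black lines are medians over the 68 members (-0.066, 0.027 and -0.095). No point passed the threshold. Sdhd tops the middle column at 0.50 and falls to -0.52 in the right one, and Cyc1 lies at -0.59 there.

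No member passed the test of a different course with age in the 2 genotypes. In the test of age by genotype 0 of 68 were called, 0 had an unadjusted p under 0.05, and 0.00635% of genes tested were called; in the scanner-file record it was 0 members, 1 at an unadjusted p under 0.05, and 0% of genes. The estimates with the smallest p were 0.68 ± 0.36 for Sdhd, 0.67 ± 0.51 for Ndufb6, 0.48 ± 0.33 for Ndufab1 and 0.38 ± 0.26 for Ndufa4 upward, and -0.47 ± 0.32 for Ndufa4l2, -0.23 ± 0.28 for Atp5g3, -0.20 ± 0.18 for Ndufa3 and -0.12 ± 0.16 for Uqcrc1 downward. The median was 0.096 in the value-table record, 0.196 without array A and -0.027 without array D, and -0.011 in the scanner-file record. The limits were wide: 30 of 68 intervals lay within 1.5-fold, against 20.5% of genes tested.

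Between birth and 1 week, with the genotypes together (4 arrays against 4), 13 members rose and 0 fell, and 10 of the 13 were accessory subunits of complex I. Ndufb3 rose by 0.43 ± 0.11 (limma adjusted p = 0.0136) and Uqcrq by 0.42 ± 0.08 (adjusted p = 0.00522), and the smallest called rise was that of Ndufs6, 0.24 ± 0.08 (adjusted p = 0.0464). The share called higher among the members, 19.1%, was near that of all genes, of which 16.2% were called higher and 17.1% lower. With 0 of 68 called lower, the members had calls in 1 direction. Their median difference was 0.122, against -0.031 over all genes tested, and 53 of 68 were positive. No member changed as much as 2-fold: the differences ran from -0.346 to 0.430, and 60 intervals lay within 1.5-fold.

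The count depended on the scaling. With each array centred on its median instead of its 75th percentile, only Uqcrq was still called; the median of all genes then lay at -0.116 and that of the members at 0.037, which is above all genes by a similar amount. Quantile normalization gave 23 calls, with medians of 0.190 for the members and -0.013 for all genes. Of all genes tested 33.3% were called in either direction with the 75th percentile, 30% with median scaling and 32.4% with quantile normalization. Leaving out single arrays gave between 6 calls (without array A, 26.3% of genes) and 13 (without array D, 31.2%, or WT birth 1, 25.1%). It gave 7 without array C or WT birth 2 (32.2% and 26.5%). Without array B, KI birth 1 or KI birth 2 it gave 8 (27.3%, 25.6% and 27.3%). Uqcrq, Uqcrc1, Ndufa3, Ndufa5, Ndufa13 and Ndufb3 were called under each of these 8 omissions.

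**Figure D3:**
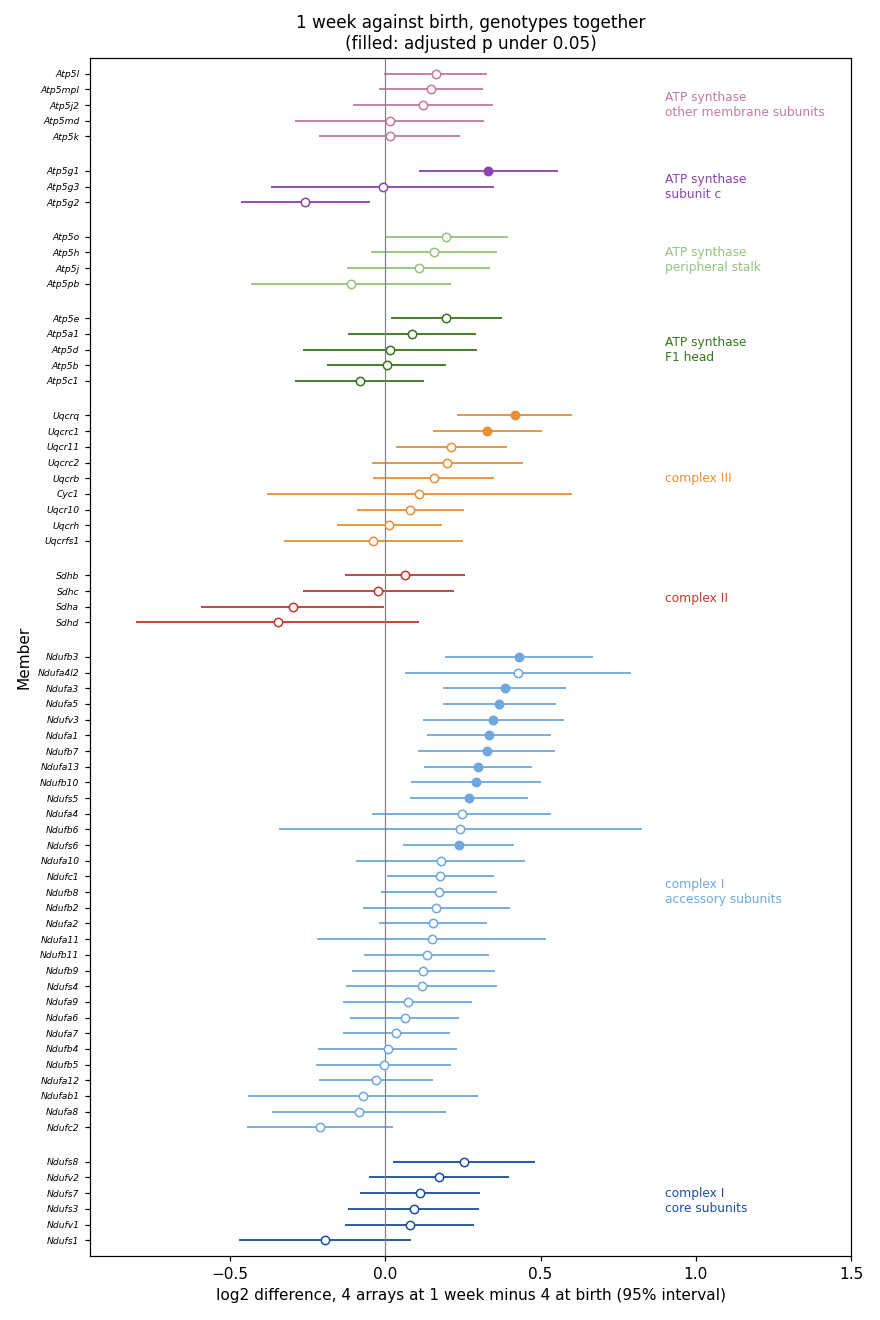
Points are log2 differences between the 4 arrays at 1 week and the 4 at birth for the members, with 95% intervals, grouped by role; filled points passed the threshold. The 13 filled points lie to the right of 0 and belong to accessory subunits of complex I, to Uqcrq and Uqcrc1 of complex III and to Atp5g1.

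**Figure D4:**
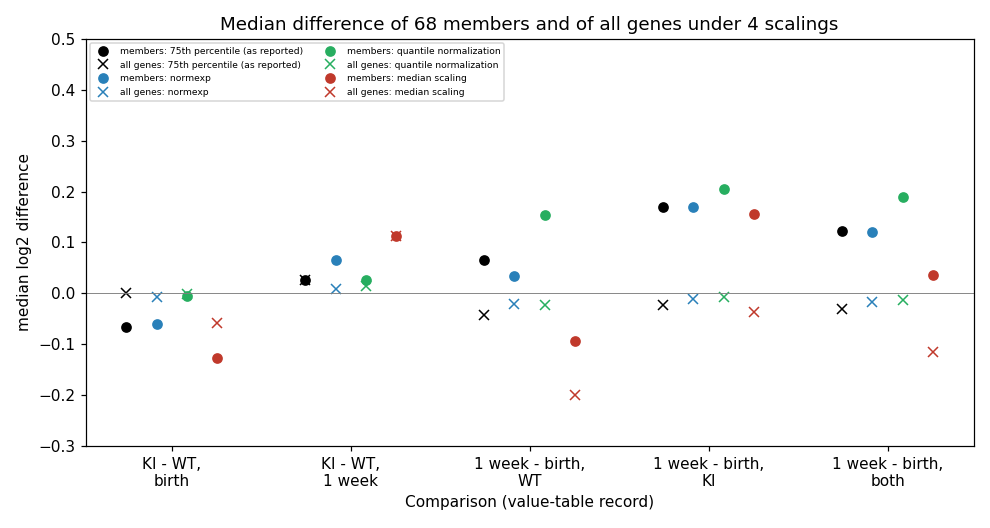
Median log2 difference of the 68 members (circles) and of all genes tested (crosses) in 5 comparisons under 4 ways of scaling the arrays. In the 3 age comparisons the circles lie above the crosses under each scaling, whereas in WT the members' own median is 0.065 with the 75th percentile and -0.093 with the array median.

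Within single genotypes few members reached the threshold. In WT, Ndufa3 rose by 0.48 ± 0.13 (limma adjusted p = 0.0412) and Uqcrq by 0.43 ± 0.12 (adjusted p = 0.0485), and 0 fell; 10.0% of genes tested were called higher and 8.96% lower. In KI 0 members were called and 8 had an unadjusted p under 0.05, while 5.86% of genes were called higher and 4.75% lower. Medians were 0.065 in WT and 0.169 in KI. Without array A the WT median was -0.021, without WT birth 2 it was -0.001 and without array D it was 0.191, so that its sign hung on single arrays. Without array A, which leaves array D as the only WT array at 1 week, 32 members were higher and 36 lower. The WT count was 0 without array B or C, where 14% and 13.3% of genes tested were called. It was 1 without KI birth 1 or KI birth 2, where 13.7% and 14.4% were called. The KI count was 0 without any 1 WT array. In the scanner-file record 0 members were called in WT (6.98% of genes higher, 5.67% lower) and Uqcrq alone in KI, at 0.50 ± 0.12 (adjusted p = 0.0386; 8.38% of genes higher, 6.88% lower), with medians of 0.140 and 0.090. The difference between genotypes in these medians was not tested.

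The 7 core subunits of complex I held 0 calls with the genotypes together. Ndufs8, which carries iron-sulphur clusters, was highest at 0.25 ± 0.10 (adjusted p = 0.084), with levels of 6.28, 6.11, 6.14 and 5.95 at birth and 6.52, 6.28, 6.44 and 6.26 at 1 week. Ndufv2 and Ndufs7 stood at 0.17 ± 0.10 and 0.11 ± 0.09. Ndufs1, the largest core subunit, stood at -0.19 ± 0.12. Ndufs1 was at 6.66, 6.57, 6.59 and 6.49 at birth and at 6.67, 6.49, 6.26 and 6.12 on arrays A to D. Arrays B, C and D lay below each birth array, B by less than the rounding of these levels, and array A lay above them.

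Of the 31 genes of the accessory group, 10 rose and 0 fell: Ndufb3, Ndufa3, Ndufa5, Ndufv3, Ndufa1, Ndufb7, Ndufa13, Ndufb10, Ndufs5 and Ndufs6. Beside this and the later counts of this comparison stand the shares of all genes tested, 16.2% called higher and 17.1% lower. Each of these 10 was higher on every array at 1 week than on every birth array. They were picked by the same age difference, so this separation adds no support. Ndufa3 was at 7.03, 6.88, 6.98 and 7.00 at birth and at 7.37, 7.22, 7.34 and 7.51 at 1 week. Ndufa5 was at 7.58, 7.54, 7.66 and 7.55 at birth and at 7.90, 7.87, 7.95 and 8.08 at 1 week. Ndufb3 was at 5.35, 5.12, 5.28 and 5.01 at birth and at 5.71, 5.68, 5.66 and 5.43 at 1 week. Over all 68 members 19 lay above birth on every array at 1 week and 2, Atp5g2 and Ndufc2, lay below, while 16.2% and 19.4% of genes tested did so.

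Other genes of this group ranged from Ndufa4l2, at 0.43 ± 0.16 (adjusted p = 0.0702), to Ndufc2, at -0.21 ± 0.10 (adjusted p = 0.151). Ndufa4l2 was at 2.16, 2.44, 2.20 and 2.87 at birth and at 3.04, 2.72, 2.74 and 2.88 at 1 week, so KI birth 2 lay among the older arrays. Ndufab1 was at 1.11, 0.79, 0.90 and 0.43 at birth and at 0.87, 0.77, 0.90 and 0.40 at 1 week. The ages overlapped, and arrays KI birth 2 and D were the low ones. Ndufa8 stood at -0.08 ± 0.12.

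Complex II held 0 calls and was the group with the lowest median, -0.160. Sdha, the flavoprotein that oxidises succinate, was at 6.74, 6.55, 6.48 and 6.42 at birth and at 6.45, 6.33, 6.32 and 5.91 at 1 week, a difference of -0.30 ± 0.13 (adjusted p = 0.108). Arrays B, C and D lay below each birth array and array A did not. Sdhd stood at -0.35 ± 0.20 (adjusted p = 0.216). Sdhb was at 7.68, 7.57, 7.48 and 7.42 at birth and at 7.69, 7.57, 7.61 and 7.55 at 1 week, a difference of 0.06 ± 0.09, and Sdhc, the other membrane anchor, stood at -0.02 ± 0.11 with levels from 4.86 on array D to 5.26 on array A.

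In complex III 2 of 9 members rose and 0 fell. Uqcrq was at 8.24, 8.13, 8.06 and 8.10 at birth and at 8.61, 8.43, 8.55 and 8.61 at 1 week. Uqcrc1 was at 6.86, 6.86, 6.85 and 6.84 at birth, the tightest values of any called member, and at 7.24, 7.06, 7.16 and 7.26 at 1 week, a rise of 0.33 ± 0.08 (adjusted p = 0.0114). Both were thus higher on each array at 1 week. Uqcr11 stood at 0.21 ± 0.08 (adjusted p = 0.0676), Uqcrc2, the second core protein, at 0.20 ± 0.11, Uqcrb at 0.16 ± 0.09 and Uqcr10 at 0.08 ± 0.08.

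The redox subunits of complex III did not pass. Cyc1, cytochrome c1, was at 6.94, 6.95, 6.86 and 6.29 at birth and at 7.27, 7.06, 6.80 and 6.35 on arrays A to D, with KI birth 2 and array D low and a difference of 0.11 ± 0.22. Uqcrfs1, the Rieske iron-sulphur protein, was at 6.46, 6.31, 6.36 and 6.23 at birth and at 6.54, 6.43, 6.27 and 5.97 at 1 week, a difference of -0.04 ± 0.13. Uqcrh stood at 0.01 ± 0.08, with an interval of -0.16 to 0.18 that rests on array-to-array spread only.

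The F1 head of ATP synthase, which holds the catalytic sites, held 0 calls among 5 genes. Atp5b, the catalytic beta subunit, was at 8.54, 8.33, 8.33 and 8.34 at birth and at 8.46, 8.35, 8.31 and 8.44 at 1 week, a difference of 0.01 ± 0.09. Its levels at the 2 ages overlapped. Atp5a1 stood at 0.09 ± 0.09, Atp5c1 (gamma) at -0.08 ± 0.09 and Atp5d (delta) at 0.02 ± 0.12. Atp5e (epsilon) stood at 0.20 ± 0.08 (adjusted p = 0.0849), with all 4 arrays at 1 week, from 7.92 to 7.98, above those at birth, from 7.63 to 7.86.

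The stalk and the other membrane subunits held 0 calls among 4 and 5 genes. In the stalk Atp5o, the oligomycin sensitivity-conferring protein, stood at 0.20 ± 0.09, Atp5h (subunit d) at 0.16 ± 0.09, Atp5j (coupling factor 6) at 0.11 ± 0.10 and Atp5pb at -0.11 ± 0.14. Atp5pb was at 7.36, 7.14, 7.20 and 7.12 at birth and at 7.26, 7.20, 7.24 and 6.67 on arrays A to D, so that array D alone was low. Among membrane subunits Atp5l (subunit g), at 0.16 ± 0.07, and Atp5mpl, at 0.15 ± 0.07, were higher on every array at 1 week. Atp5j2 stood at 0.12 ± 0.10, and Atp5k (subunit e) and Atp5md at 0.01 ± 0.10 and 0.01 ± 0.14.

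Of the 3 genes for subunit c, 1 passed the test between birth and 1 week. Atp5g1, Atp5g2 and Atp5g3 encode the same mature protein of the proton-carrying ring with different import presequences, so they offer 3 transcripts for 1 part. Atp5g1 was at 8.15, 7.85, 7.91 and 7.78 at birth and at 8.37, 8.23, 8.22 and 8.18 at 1 week, a rise of 0.33 ± 0.10 (limma adjusted p = 0.0316) that was called under 5 of 8 alternatives and on 2 of 8 omissions of an array. Atp5g2 was at 7.62, 7.50, 7.48 and 7.53 at birth and at 7.35, 7.33, 7.36 and 7.07 at 1 week, a difference of -0.26 ± 0.09 (adjusted p = 0.0594). All 4 arrays at 1 week lay above birth for the first gene and below birth for the second. Atp5g3 stood at -0.01 ± 0.16, with array C low.

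The difference of Atp5g1 and Atp5g2 within an array does not depend on how arrays are scaled. At birth it was 0.524 and 0.348 in WT, then 0.426 and 0.253 in KI. Arrays A to D gave 1.018, 0.902, 0.865 and 1.119. The mean was 0.39 ± 0.12 (SD, n = 4) at birth and 0.98 ± 0.12 (SD, n = 4) at 1 week. The ratio was formed after the values were seen, from genes whose ages did not overlap in opposite directions, so that its shift of 0.588 is a description with no test. Atp5g3 moved against Atp5g2 by 0.249, and Atp5g1 against Atp5g3 by 0.339. A second probe of Atp5g1 gave an age difference of 0.135, in place of 0.331.

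**Figure D5:**
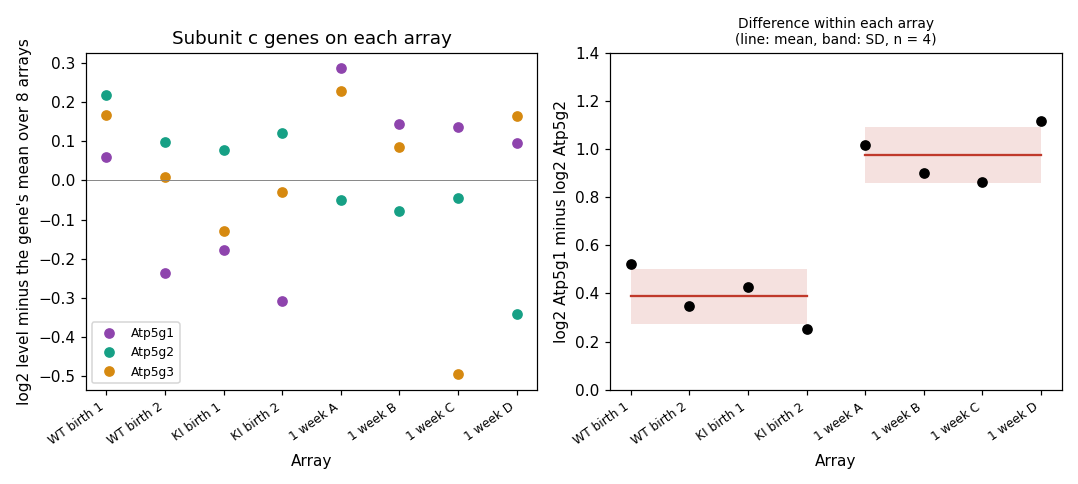
Left, the log2 level of each subunit c gene on each array minus its mean over 8 arrays; right, the difference between Atp5g1 and Atp5g2 on each array, with the mean and SD of the 4 arrays of each age. The 4 values at 1 week, from 0.865 to 1.119, lie above the 4 at birth, from 0.253 to 0.524.

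The sequences before the start sites of these genes are given for Atp5g1 and Atp5g2, which encode the same mature protein, and for 2 accessory subunits of complex I that rose. They are 250 bases upstream of the RefSeq transcript start in build GRCm38.p6, 5′ to 3′ on the gene's strand. Capitals mark letters that match a motif of NRF1 or YY1, factors known to act at promoters of respiratory genes. Atp5g1 lies at chr11:96075632-96075881 on the minus strand, Atp5g2 at chr15:102671048-102671297 on the minus strand, Ndufa3 at chr7:3617123-3617372 on the plus strand and Ndufa5 at chr6:24527527-24527776 on the minus strand.
Atp5g1: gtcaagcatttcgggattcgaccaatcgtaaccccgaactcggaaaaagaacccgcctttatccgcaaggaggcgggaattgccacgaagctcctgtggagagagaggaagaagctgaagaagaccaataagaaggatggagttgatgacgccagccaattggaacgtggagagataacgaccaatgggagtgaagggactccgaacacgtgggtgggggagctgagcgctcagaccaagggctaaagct
Atp5g2: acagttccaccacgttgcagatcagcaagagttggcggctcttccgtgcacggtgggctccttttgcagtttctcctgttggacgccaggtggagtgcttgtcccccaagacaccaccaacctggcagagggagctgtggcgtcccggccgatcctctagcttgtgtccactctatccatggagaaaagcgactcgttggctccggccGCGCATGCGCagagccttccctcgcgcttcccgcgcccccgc
Ndufa3: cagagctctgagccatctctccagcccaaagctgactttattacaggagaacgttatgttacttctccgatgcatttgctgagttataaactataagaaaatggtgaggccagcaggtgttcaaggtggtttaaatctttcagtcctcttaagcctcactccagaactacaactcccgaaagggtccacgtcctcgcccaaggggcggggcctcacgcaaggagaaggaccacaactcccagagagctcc
Ndufa5: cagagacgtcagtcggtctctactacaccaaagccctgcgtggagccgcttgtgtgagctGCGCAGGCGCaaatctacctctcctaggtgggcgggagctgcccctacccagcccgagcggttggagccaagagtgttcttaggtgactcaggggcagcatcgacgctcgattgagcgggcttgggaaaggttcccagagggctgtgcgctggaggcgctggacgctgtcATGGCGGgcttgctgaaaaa

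Searched on both strands in the 300 bases from 250 before to 50 after the start, the motifs were GCGCNTGCGC for NRF1, TCAAGGTCA for the oestrogen-related receptors (ERR), CCGGAAG for GABPA and ATGGCGG for YY1. A full entry was found for 56 of the 68 members; Uqcrq and Cyc1 are among those without one. The NRF1 letters were in 15 of these 56 (26.8%) and in 4.78% of 27025 promoters of the same length. GABPA letters were in 13 (23.2%, against 9.12%), YY1 letters in 9 (16.1%, against 4.19%) and ERR letters in 2, Atp5g3 and Sdhd (3.57%, against 0.407%). At least 1 of the 4 motifs was in 32 members (57.1%) and in 16.3% of all promoters. The members' promoters were also richer in G and C, with a median of 59% against 52.7%, and the part of base composition in these shares was not tested.

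The same letters were counted among the members that rose, with no test. NRF1 letters were in 4 of the 12 risen members with an entry (Ndufa5, Ndufs5, Ndufs6 and Uqcrc1) and in 11 of the other 44. GABPA letters were in 1 of the 12 (Ndufb7) and in 12 of the 44, YY1 letters in 3 (Ndufa1, Ndufa5 and Ndufs6) and in 6, and ERR letters in 0 and in 2. The median age difference was 0.062 for members with NRF1 letters and 0.121 for those without. Atp5g2 has an NRF1 match, GCGCATGCGC, 42 to 33 bases before its start, and Atp5g1 has none of the 4 motifs in this window. Ndufa5 has an NRF1 match and a YY1 match, and Ndufa3 has none. A match is a description of the letters and shows no binding.

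Probes of the same gene did not always give the same difference. Of the members 17 had several probes and 51 had 1; the brightest stood for the gene. Of 18 further probes that were above background on every array, 10 gave an age difference of the same sign as the probe used and 8 the opposite sign. The second probe of Ndufa3 gave 0.376 beside 0.384, and that of Ndufa5 gave 0.368 beside 0.367. By contrast, 2 further probes of Atp5b gave -0.244 and -0.411 beside 0.005, and the second probe of Sdhb gave -0.611 beside 0.063. The second probe of Sdha gave -0.569 beside -0.298. A second probe of Atp5a1 gave -0.29 beside 0.085, and those of Atp5o, Ndufa10, Ndufv1 and Uqcr10 also gave the opposite sign. In each of the 8 cases the probe used was higher at 1 week and the other probe lower. Values for these genes, Atp5b and Sdhb therefore hold for 1 probe. With the mean of all probes the median age difference of the members was 0.114, in place of 0.122. Whether the probes read different transcript ends was not tested.

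Genes that work with these complexes were compared over the same 4 arrays against 4. Of 26 assembly factors 1 rose, Ecsit of the complex I assembly machinery, by 0.28 ± 0.09 (limma adjusted p = 0.0397), and 0 fell, with a median of -0.043. Of 15 genes of coenzyme Q synthesis and cytochrome c 2 rose and 1 fell. The one that fell was Cyct, the testis form of cytochrome c, with levels from -4.70 to -2.79 at birth and from -6.78 to -4.19 at 1 week. On arrays A, C and D it was at -6.78, -6.78 and -6.24, near the floor of the signal. A gene entered this comparison if it was well above background on every array of either age. The fall of Cyct is therefore not read as a result. Coq8a rose by 0.69 ± 0.22 (adjusted p = 0.0389), and Coq10a, a coenzyme Q-binding protein, rose by 1.12 ± 0.13 (adjusted p = 0.00038). Its levels were 1.67, 1.61, 1.23 and 1.35 at birth and 2.86, 2.51, 2.54 and 2.43 at 1 week, a change larger than that of any of the 68 members. Of the ATP synthase inhibitor and 6 carriers and channels 0 rose and 1 fell, the adenine nucleotide carrier Slc25a5, by 0.71 on the log2 scale (difference -0.71 ± 0.18, adjusted p = 0.0156).

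Of 15 nuclear subunits of complex IV 2 rose and 2 fell. The 3 with the smallest p in WT were Cox8b, a heart and muscle isoform, which rose by 0.68 ± 0.12 (adjusted p = 0.00284), and the ubiquitous isoforms Cox8a and Cox6a1, at -0.47 ± 0.09 (adjusted p = 0.00474) and -0.50 ± 0.10 (adjusted p = 0.00518). Cox7a1, also a heart and muscle isoform, rose by 0.34 ± 0.10 (adjusted p = 0.0272). Cox8b was at 6.98, 6.99, 6.93 and 7.00 at birth and at 7.85, 7.45, 7.45 and 7.87 at 1 week. Of 14 genes of the citric acid cycle 1 rose, Ogdh of the oxoglutarate dehydrogenase complex, by 0.65 ± 0.10 (adjusted p = 0.00127), and 1 fell, Suclg2, at -0.92 ± 0.25 (adjusted p = 0.0208). Of 13 regulators of mitochondrial gene expression 1 rose, the fatty acid receptor Ppara, by 0.38 ± 0.11 (adjusted p = 0.0244), and 1 fell, the receptor Esrrg, at -0.66 ± 0.16 (adjusted p = 0.0112). Coq8a, Cox7a1 and Ppara were named after their values were seen, to complete the counts. In KI against WT 0 of these genes were called at birth or at 1 week in either record.

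Cardiomyocyte markers were present on every array, 10 of 10 well above background, with a summed level between 11.62 and 11.89. Among them Myh7, the fetal heavy chain of myosin, had the widest range: it was at 9.49, 9.44, 9.45 and 9.52 at birth and at 4.61, 7.12, 7.28 and 4.54 on arrays A to D. Markers of other tissue differed between the arrays at 1 week. Ucp1 of brown fat was well above background on arrays B, C and D, at 0.52, 1.23 and 2.40, and not on array A (-6.28) or the birth arrays (-7.29 to -6.84). The summed level of 12 adipocyte markers was 7.66, 7.61, 8.05 and 8.09 on arrays A to D and from 7.65 to 7.78 at birth, with 5 of 12 above background on every array. Fabp4 made up most of this sum, at 7.295, 7.212, 7.764 and 7.765 on arrays A to D. Adipoq, Plin1, Cidec and Cfd, like Ucp1, were far higher on arrays B, C and D than on array A. Cfd did not keep the order of Ucp1, at -1.379 on B and -3.064 on C. Other listed markers lacked this pattern. Cidea was at 4.644 on array A and at 4.734, 4.804 and 4.82 on arrays B to D. Elovl3 was well above background on 0 arrays, and Retn, Adrb3 and Pnpla2 did not separate array A in this way. Cidec was at -6.37 on array A and at -2.13, -2.085 and -0.015 on arrays B to D, whereas Lep ran only from -1.47 to -1.08 over the 8 arrays. The summed level of 8 atrial markers was 6.02 on array A and 8.66, 8.89 and 8.89 on arrays B to D, and from 8.76 to 9.19 at birth.

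Array A, without a Ucp1 signal, held the highest member median at 1 week (0.157), and array D, with the highest Ucp1 signal, the lowest (-0.043). Arrays B and C did not follow that order: C had more Ucp1 signal than B and a higher member median (0.089 against 0.058). Their part in the members' values was not tested. In tissue RNA fewer cells of a type and less RNA per cell cannot be told apart. Without array D the median age difference of the members was 0.167 with 13 calls, and without array A it was 0.086 with 6. Of all genes tested 31.2% and 26.3% were called in these runs. Of 10 fibroblast markers 7 rose and 1 fell between birth and 1 week, and of 10 endothelial markers 6 rose and 0 fell, and their summed levels were 8.78 to 9.15 and 7.59 to 8.08 at 1 week against 7.87 to 8.13 and 7.27 to 7.31 at birth.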

How the data were processed

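Total RNA of mouse ventricle was hybridised to 8 single-colour (Cy3) Agilent arrays, 100 ng per array per the labels. The deposited scanner files hold processed signal: linear intensity after background and spatial correction within the array by the authors' scanner software, not normalized between arrays; the flags used as filters are coded 0 or 1 per the file headers. The deposited value table holds this intensity as a mean per probe. Its columns were set against the scanner files at a relative tolerance of 1e-04 over 56305 probes with 1 spot, and 3 of the 1-week columns matched a different sample's file. The file headers give Feature Extraction 11.0.1.1 and build mm9, and the submitters' processing notes give version 9.1.

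From log2 signals each array's 75th percentile over 56590 non-control probes was subtracted; 15 probes without a usable spot were left out. RefSeq accessions named 32988 probes through the GRCm38.p6 gene table. The brightest probe stood for a gene, and a gene was tested where some group had it well above background on both arrays: 15744 in the value-table and 15757 in the scanner-file record. Group means over 8 arrays were fitted with limma 3.58.1 (lmFit, eBayes; R 4.3.3; 4 residual degrees of freedom), with Benjamini-Hochberg adjustment over all genes of a comparison and a threshold of 0.05. The comparison of ages with the genotypes together (15173 genes) and the subunit c ratios were added after seeing the data. The code was tested on simulated data.

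Members and lists were chosen with earlier results of these data known. Members named were, per genotype comparison, the 4 with the smallest p in each direction; per role, the 3 largest differences each way from birth to 1 week in WT; complexes II and III, the subunit c genes and Ndufa4l2; and those past the threshold. Of each list up to 3 genes with the smallest p in WT were named. Alternatives were the other record, normexp background correction (offset 50), quantile and median scaling, other filters, the mean of all probes, the deposited table, the replicate block, fits on the arrays compared and leaving out each array. The replicate numbers did not pair the arrays: deviations of same-numbered arrays correlated between -0.137 and 0.286. Promoter sequences are RefSeq's. 1 member enters the counts and medians but is not reported singly here or drawn.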

Additional observations from a re-analysis of the deposited data

How the results depend on the processing

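No named member had a call that turned sign under any alternative run. No member was called between genotypes, or for age by genotype, under any of them. Counts for age moved. Shares in brackets are those of all genes called in the same run. In WT (2 calls, 19%) normexp, quantile normalization and the percentile taken over spots (added after seeing the data) each gave 4 (19.9%, 19.1% and 19.3%). Median scaling, no filter and the mean of all probes each gave 0 (17.5%, 8.15% and 17.4%). The scanner-file record, the fit on only the arrays compared and the replicate block also gave 0 (12.7%, 2.79% and 18.4%). Leaving out a KI array gave 0 or 1 (13.3% to 14.4%). Without array A 32 members were higher and 36 lower. In KI (0 calls, 10.6%) normexp gave 2 (10.9%), quantile normalization 1 (10.4%) and the scanner-file record 1 (15.3%), with 0 on leaving out a WT array. With the genotypes together (13 calls, 33.3%) quantile normalization gave 23 (32.4%), no filter 7 (17.5%) and median scaling 1 (30%). Leaving out arrays gave 6 to 13 there (25.1% to 32.2%). Of the 13, Atp5g1 was called under 5 of 8 alternatives and 2 of 8 omissions, Ndufs5 under 5 and 2, and Ndufs6 under 5 and 1. Some median member differences moved beyond the spread of the array medians (SD 0.09). In WT the median moved to -0.093 with median scaling and to 0.191 without array D, whereas -0.021 without array A lay within that spread. At 1 week between genotypes it moved to -0.095 in the scanner-file record, and to -0.083 and 0.125 over omissions. For age by genotype it moved to -0.011 in the scanner-file record, 0.241 with median scaling, and -0.027 and 0.196 over omissions. The cause was not tested. Median scaling moved the median of all genes from -0.042 to -0.200 in WT and from -0.031 to -0.116 over both genotypes.

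Of 41 named differences in WT with age, 25 changed sign under at least 1 alternative or omission, 12 with median scaling and 9 in the scanner-file record; of 8 at 1 week between genotypes 7 did so, and none of these was past the threshold on either side. The correlations of same-numbered arrays did not pair them, so the replicate block (0 calls in WT, in place of 2) is given only here. With 2 arrays a group, signal over background limited no member, and the number of arrays limited each value.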
